A study of Homo sapiens with 192 samples.

Results

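The 9 genes described here are NFE2L2, which encodes the transcription factor NRF2, and 8 of its antioxidant and detoxification targets: NQO1, HMOX1, GCLM, GCLC, TXNRD1, SRXN1, AKR1C1 and AKR1B10. They were chosen by symbol, with earlier results of these data known, and matched to Ensembl identifiers. All 9 were found among the 58243 identifiers counted and were kept among the 19387 genes tested. RNA was sequenced from 4 human colorectal carcinoma (CRC) lines, LS174T, HCT116, LS513 and HT29. Every line was cultured under 2D and under 3D conditions, which makes 8 groups of 3 libraries. HT29 and LS513 are microsatellite stable lines, whereas HCT116 and LS174T have microsatellite instability. HCT116 was kept in McCoy medium and the other lines in DMEM, so that a difference between HCT116 and another line cannot be told apart from one of medium. Each line stands for a single tumour, and nothing in the sources used here says that the 3 libraries of a group came from separate cultures, so the p-values measure the spread between these libraries, which may be technical.

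NRF2 is held at a low level by KEAP1, an adaptor that hands it to the CUL3 ubiquitin ligase for degradation. Electrophiles and oxidants modify KEAP1, NRF2 then accumulates, pairs with a small MAF protein and binds antioxidant response elements in its target genes. Because this control acts on the protein, the level of NFE2L2 mRNA is not a measure of NRF2 activity. The targets make glutathione (GCLC and GCLM), keep thioredoxin and peroxiredoxins reduced (TXNRD1 and SRXN1), reduce quinones (NQO1), break down heme (HMOX1) and reduce carbonyls (AKR1C1 and AKR1B10). In the gut these enzymes meet dietary electrophiles and microbial products.

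An antioxidant response element has the core TGACNNNGC, which reads GCNNNGTCA on the other strand. Both forms were searched in the window from 250 bases before to 50 bases after each annotated start (RefSeq, GRCh38.p14), and 13.3% of the 35116 windows of all genes held one. Of the 9 genes, 7 had windows, all but HMOX1 and AKR1B10, and 3 of their 9 windows held the core, those of GCLM and TXNRD1. The matches of GCLM and TXNRD1 are shown because no other member had one. That of MAFF, a small MAF partner of NRF2, is shown because MAFF rose in every line. NFE2L2, NQO1, GCLC, SRXN1 and AKR1C1 had no match in their windows. An element outside these short windows would not have been found, so the absence of a match does not show that a gene lacks one. The core is in capitals, with 20 bases on each side, 5′ to 3′ on the strand of the gene.

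GCLM (chr1:93909436-93909484, minus strand): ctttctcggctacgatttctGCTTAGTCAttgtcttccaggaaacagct
TXNRD1 (chr12:104215660-104215708, plus strand): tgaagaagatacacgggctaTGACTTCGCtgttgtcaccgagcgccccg
TXNRD1 (chr12:104215751-104215799, plus strand): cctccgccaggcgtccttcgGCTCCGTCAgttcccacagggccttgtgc
TXNRD1, a later start (chr12:104286910-104286958, plus strand): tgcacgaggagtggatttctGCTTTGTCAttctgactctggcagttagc
MAFF (chr22:38201852-38201900, plus strand): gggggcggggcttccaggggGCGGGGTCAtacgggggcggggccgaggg

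The core began 34 bases before the start in GCLM and 122 bases before it in MAFF. In TXNRD1 it began 99 and 8 bases before the first start and 102 bases before the later one. Of the 93 windows of other pathway genes listed further on, 20 held the core (21.5%). A match describes the letters in the window and is no measurement of binding.

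The genes lie apart in the genome (GRCh38, GENCODE 29). NFE2L2 (ENSG00000116044) is at chr2:177227595-177392697, NQO1 (ENSG00000181019) at chr16:69706996-69726951 and GCLM (ENSG00000023909) at chr1:93885205-93909456, all on the minus strand. GCLC (ENSG00000001084, chr6:53497341-53616970) and SRXN1 (ENSG00000271303, chr20:646615-653370) are also on the minus strand. HMOX1 (ENSG00000100292, chr22:35380361-35394214), TXNRD1 (ENSG00000198431, chr12:104215779-104350305), AKR1C1 (ENSG00000187134, chr10:4963253-4983283) and AKR1B10 (ENSG00000198074, chr7:134527592-134541408) are on the plus strand. All are protein coding, and a value is the sum of the reads on all exons of the gene, untranslated regions included.

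For SRXN1 the count is not of that gene alone. Of its 2698 exonic bases, 2292 (84.95%) also belong to ENSG00000270299 on the same strand, and the ratio of the counts of the 2 identifiers was between 0.998 and 1.00 in every library. Reads from SRXN1 and from this overlapping transcript could not be told apart, and each value of SRXN1 stands for both. Reads of 75 bases would match another gene over 21.9% of the positions in the AKR1C1 transcripts, mainly AKR1C2, and over 6.07% of those of AKR1B10. Reads that align to several places were removed before counting, which lowers the AKR1C1 count by an amount that was not measured. GCLC shares 6.12% of its exonic bases with AL033397.1, which reached at most 12.7% of the GCLC count in a library. NFE2L2 shares 17.63% of its exonic bases with AC019080.1 on the same strand, which reached at most 1.73% of the NFE2L2 count in a library.

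Library totals were between 18723942 and 34277421 counts, with a median of 30777613, and the limit of detection was set at 3 counts, or 0.0875 to 0.160 CPM (counts scaled to a common library size, here with TMM). This limit covers counting error only. Of 9 markers of colon epithelium, 8 were above it in all 24 libraries, with a summed level of 3480 to 18400 CPM. LGALS4 was the exception. The sum was higher in 3D without overlap in LS513 (14000 to 16000 against 10200 to 10500 CPM) and HCT116 (5480 to 6060 against 3570 to 4610 CPM), and the 2D and 3D libraries overlapped in HT29 and LS174T. Of 9 markers of immune cells, fibroblasts and endothelium, PTPRC, CD3E, COL1A2 and DCN were above the limit in no library. The sum of these 9 was nevertheless higher in 3D than in 2D in each line, at 13.6 to 18.8 against 7.34 to 9.46 CPM in HT29, 62.4 to 92.6 against 18.1 to 20.6 CPM in LS513, 46.4 to 69.8 against 23.6 to 28.2 CPM in HCT116 and 5.34 to 6.56 against 2.22 to 3.92 CPM in LS174T. Of the 9, only CD68, a macrophage marker that is also a lysosomal protein of other cells, was above the limit in all libraries. It had 2.08 to 91.8 CPM, where the highest sum was 92.6 CPM. COL1A1 reached 21.8 CPM, PECAM1 2.29 CPM, VWF 0.719 CPM and CDH5 0.166 CPM. The part of these markers in the results was not tested. In these bulk samples, fewer cells of a type and less RNA per cell cannot be told apart.

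Some libraries stood apart over the 9 genes. HT29 3D replicate 3 was the highest of its 3 libraries for 7 of the 9, and HT29 3D replicate 1 the lowest for 8. LS513 3D replicate 2 was the highest of its group for 6, and LS513 2D replicate 1 for all 9.

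All 24 libraries were fitted together with the quasi-likelihood test of edgeR, and a gene is said to have risen or fallen where its adjusted p was under 0.05, two-sided, after Benjamini-Hochberg adjustment over the 19387 genes. Fold changes are log2 of 3D over 2D with their standard error (SE), and levels are CPM as mean ± SD over 3 libraries. An exact permutation test of 3 libraries against 3 cannot go below p = 0.1, so the absence of overlap between groups is given as a description.

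The members called in 3D against 2D are given for each line beside the shares of all tested genes. These counts are no test of a difference between lines, which is given further on. In HT29, no member rose and 4 fell (GCLM, GCLC, TXNRD1 and AKR1C1), where 21.1% of all tested genes rose and 19.6% fell. In LS513, 4 members rose (GCLC, TXNRD1, SRXN1 and AKR1B10) and none fell, against 13.7% and 9.9% of all genes. In HCT116, 2 members rose (HMOX1 and GCLC) and 1 fell (GCLM), against 16.8% and 12.3% of all genes. In LS174T, 2 members rose (AKR1C1 and AKR1B10) and none fell, against 13.1% and 9.15%. For a set of 9 genes, the counts in HCT116 and LS174T and the absence of falls in LS513 were near these shares. The median log2 fold change of the 9 members was -0.22 in HT29, 0.44 in LS513, 0.11 in LS174T and 0.0042 in HCT116, where the medians of all genes were 0.0, 0.0, 0.016 and 0.011. At an unadjusted p under 0.05, 1 member passed as higher in HT29 (HMOX1), 0 as lower in LS513 and 0 as lower in LS174T, and DESeq2 called 0 in each of these 3 directions. In the other directions DESeq2 called 3 falls in HT29, 4 rises in LS513, 2 rises and 1 fall in HCT116 and 2 rises in LS174T. Neither NFE2L2 nor NQO1 passed the test in any line. When single libraries were left out, the counts were 2 to 4 in HT29 and 0 to 3 in LS174T, and in HCT116 the count was 1 whichever of its 6 libraries was left out. The lowest counts came without HT29 2D replicate 1 and LS174T 2D replicate 1, and the highest in LS174T without 3D replicate 3.

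**Figure D1:**
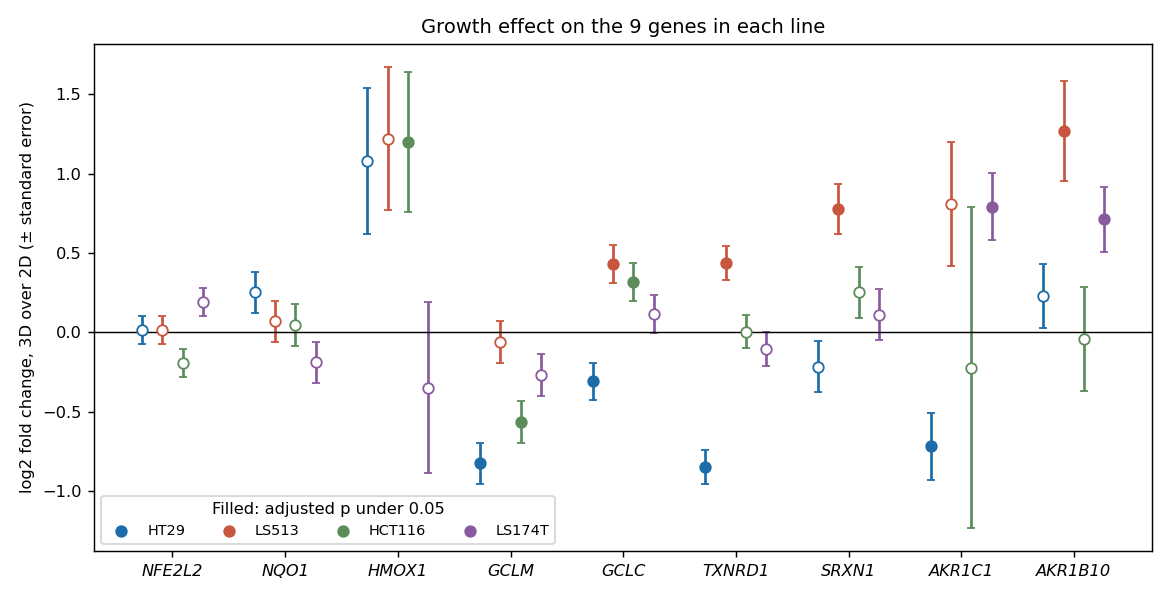
Log2 fold change of 3D over 2D (y axis) with its standard error for the 9 genes (x axis) in the 4 lines, coloured by line, filled where the adjusted p was under 0.05. In HT29, TXNRD1, GCLM, AKR1C1 and GCLC lie below 0, whereas the filled points of LS513 lie between 0.43 and 1.27.

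NFE2L2 varied little with growth condition. In HT29 the 2D libraries had 111, 107 and 105 CPM and the 3D libraries 105, 127 and 95 CPM, and the groups overlapped. LS513 had 159 ± 1.97 CPM in 2D and 161 ± 8.96 CPM in 3D. In HCT116 the 3 libraries grown in 3D (106 to 110 CPM) lay below those grown in 2D (121 to 125 CPM), and the log2 fold change was -0.20 (SE 0.089, adjusted p = 0.104, edgeR). With 2 libraries of other lines left out together (HT29 3D replicate 3 and LS513 3D replicate 2), an alternative chosen after the values were seen, it was -0.22 (adjusted p = 0.0396, edgeR). LS174T had the highest mean, 170 ± 18.2 CPM in 3D against 149 ± 2.90 CPM in 2D, with a log2 fold change of 0.19 (adjusted p = 0.125, edgeR). Without LS174T 3D replicate 2, the lowest of its group, that value was 0.28 (adjusted p = 0.0356, edgeR). In 2D the order was LS513, LS174T, HCT116 and HT29, and no 2 neighbouring groups overlapped in this order. The highest group mean of NFE2L2 was 1.57 times the lowest.

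GCLC and GCLM encode the catalytic and the modifier subunit of glutamate-cysteine ligase, the first and rate-limiting enzyme of glutathione synthesis. In HT29, GCLM had 88.1, 93.5 and 97.6 CPM in the 2D libraries and 44.8, 54.5 and 58.1 CPM in the 3D libraries. All 3D libraries lay below all 2D libraries, and GCLM fell by 0.83 on the log2 scale (SE 0.132, adjusted p = 3.86e-05, edgeR). In HCT116, GCLM had 74.2, 71.8 and 62.1 CPM in 2D and 41.3, 41.8 and 57.7 CPM in 3D, and it fell by 0.56 (SE 0.132, adjusted p = 0.00252, edgeR). The third HCT116 library grown in 3D was the highest of its group but still below the lowest 2D library. In LS174T, GCLM had 38.2 ± 3.53 CPM in 2D and 31.7 ± 4.35 CPM in 3D, and the groups overlapped (adjusted p = 0.146, edgeR). Without LS174T 3D replicate 3 the log2 value was -0.38 (adjusted p = 0.048, edgeR). In LS513, GCLM stayed at 52.8 ± 2.80 and 50.7 ± 5.99 CPM, with a log2 fold change of -0.06 (SE 0.132).

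GCLC followed another pattern. In LS513 it had 99.4, 91.2 and 96.1 CPM in 2D and 118, 130 and 139 CPM in 3D, without overlap, and it rose by 0.43 (SE 0.119, adjusted p = 0.0104, edgeR). In HCT116, GCLC had 104, 102 and 92.9 CPM in 2D and 118, 120 and 133 CPM in 3D, and it rose by 0.32 (adjusted p = 0.0494, edgeR), while GCLM fell in the same libraries. In HT29, GCLC had 128, 119 and 134 CPM in 2D and 82.1, 118 and 106 CPM in 3D, a fall of 0.31 (adjusted p = 0.0412, edgeR) in which the highest 3D library nearly reached the lowest 2D library. The calls in HT29 and HCT116 were close to the threshold, and each was lost in 10 of 13 alternatives. The GCLC value of HT29 was -0.14 (adjusted p = 0.378, edgeR) without 3D replicate 1, and the call was also lost without 3D replicate 4 (-0.31) and without 2D replicates 1 (-0.26), 2 (-0.32) and 3 (-0.24). The GCLC call in HCT116 was lost whichever single library of that line was left out, with values of 0.24 to 0.34, and the one in LS513 was lost without 2D replicate 2 (0.40, adjusted p = 0.0517, edgeR).

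TXNRD1 encodes cytosolic thioredoxin reductase, a selenoprotein that uses NADPH to reduce thioredoxin. In HT29, TXNRD1 had 942, 960 and 910 CPM in the 2D libraries and 438, 552 and 569 CPM in the 3D libraries. Every 3D library was far below every 2D library, and TXNRD1 fell by 0.85 on the log2 scale (SE 0.106, adjusted p = 1.99e-06, edgeR), to 0.555 times its 2D level. In LS513, TXNRD1 had 244, 236 and 240 CPM in 2D and 311, 340 and 323 CPM in 3D, and it rose by 0.44 (SE 0.106, adjusted p = 0.00411, edgeR). In HCT116 the means were 790 ± 109 CPM in 2D and 793 ± 90.9 CPM in 3D, and the sign of the fold change turned between alternatives, from -0.12 without HCT116 2D replicate 3 to 0.10 without HCT116 2D replicate 1. LS174T had 313 ± 9.35 CPM in 2D and 291 ± 26.7 CPM in 3D, and the groups overlapped. The falls of TXNRD1 and GCLM in HT29, the rises of TXNRD1 and SRXN1 in LS513 and the fall of GCLM in HCT116 stayed past the threshold in all 13 alternatives run for each.

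SRXN1 encodes sulfiredoxin, which repairs overoxidized peroxiredoxins. In LS513, SRXN1 together with its overlapping transcript had 177, 164 and 159 CPM in 2D and 245, 387 and 224 CPM in 3D. The 3D libraries were all above the 2D libraries, and SRXN1 rose by 0.78 (SE 0.160, adjusted p = 0.000992, edgeR). LS513 3D replicate 2 was the highest, and without it the SRXN1 value was 0.49 (adjusted p = 0.0150, edgeR). In HCT116 the 3D libraries (243 to 287 CPM) also lay above the 2D libraries (202 to 231 CPM), and the log2 fold change was 0.25 (adjusted p = 0.252, edgeR). In LS174T, SRXN1 had 122 ± 8.56 CPM in 2D and 132 ± 2.23 CPM in 3D. In HT29, SRXN1 had 127 ± 4.61 CPM in 2D, and its 3D libraries at 83.2, 141 and 104 CPM lay on both sides of that level, with a log2 value of -0.22 (adjusted p = 0.294, edgeR). The highest of them was replicate 3, and the SRXN1 value was -0.40 without it (adjusted p = 0.0537, edgeR) and -0.025 without replicate 1, the lowest. With HT29 3D replicate 3 and LS513 3D replicate 2 left out together, SRXN1 passed the test in HT29 (-0.40, adjusted p = 0.00496, edgeR).

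NQO1 encodes a quinone reductase and had the highest level per transcript length of the 9 genes in all 8 groups. In HT29 it had 916, 731 and 937 CPM in 2D and 896, 1100 and 1070 CPM in 3D. One 3D library lay among the 2D libraries, and the log2 fold change of NQO1 was 0.25 (SE 0.130, adjusted p = 0.128, edgeR). Without that library, HT29 3D replicate 1, it was 0.37 (adjusted p = 0.0486, edgeR). NQO1 had 590 ± 11.6 CPM in 2D and 619 ± 58.1 CPM in 3D in LS513, and 638 ± 24.6 and 659 ± 97.0 CPM in HCT116. The lowest group was LS174T in 3D, with 347, 484 and 340 CPM against 445 ± 36.6 CPM in 2D. The 2D and 3D libraries of NQO1 overlapped in all 4 lines.

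HMOX1 encodes heme oxygenase 1, which cleaves heme to biliverdin, iron and carbon monoxide. In HCT116 it had 60.2, 48.2 and 53.9 CPM in 2D and 134, 121 and 117 CPM in 3D. The 3D libraries were all above the 2D libraries, and HMOX1 rose by 1.2 on the log2 scale (SE 0.442, adjusted p = 0.0485, edgeR). The adjusted p passed the threshold narrowly, and with each of the 6 HCT116 libraries left out in turn the HMOX1 value was 1.12 to 1.28 and its adjusted p 0.078 to 0.147. In LS513, HMOX1 had 21.9, 19.3 and 19.4 CPM in 2D and 25.5, 93.0 and 22.8 CPM in 3D. A single 3D library, replicate 2, was several times above the rest, and the HMOX1 log2 fold change of 1.22 (adjusted p = 0.0576, edgeR) became 0.25 without it. In HT29, HMOX1 had 17.3, 10 and 16.2 CPM in 2D and 16.2, 57.2 and 18.7 CPM in 3D. Replicate 3 alone was high, and the HMOX1 value of 1.08 (adjusted p = 0.0688, edgeR) became 0.315 without it. HMOX1 passed the threshold where a low library of the same group was left out instead, at 1.42 without HT29 3D replicate 1 and 1.37 without replicate 4, and at 1.51 without LS513 3D replicate 1 and 1.55 without replicate 3. With all genes counted at least once kept, its adjusted p was 4.09e-14 in HT29 and 3.54e-17 in LS513 although 2 of the 3 libraries of each 3D group were near the 2D level. HMOX1 was lowest in LS174T, at 4.33 ± 0.459 CPM in 2D and 3.42 ± 0.994 CPM in 3D.

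**Figure D2:**
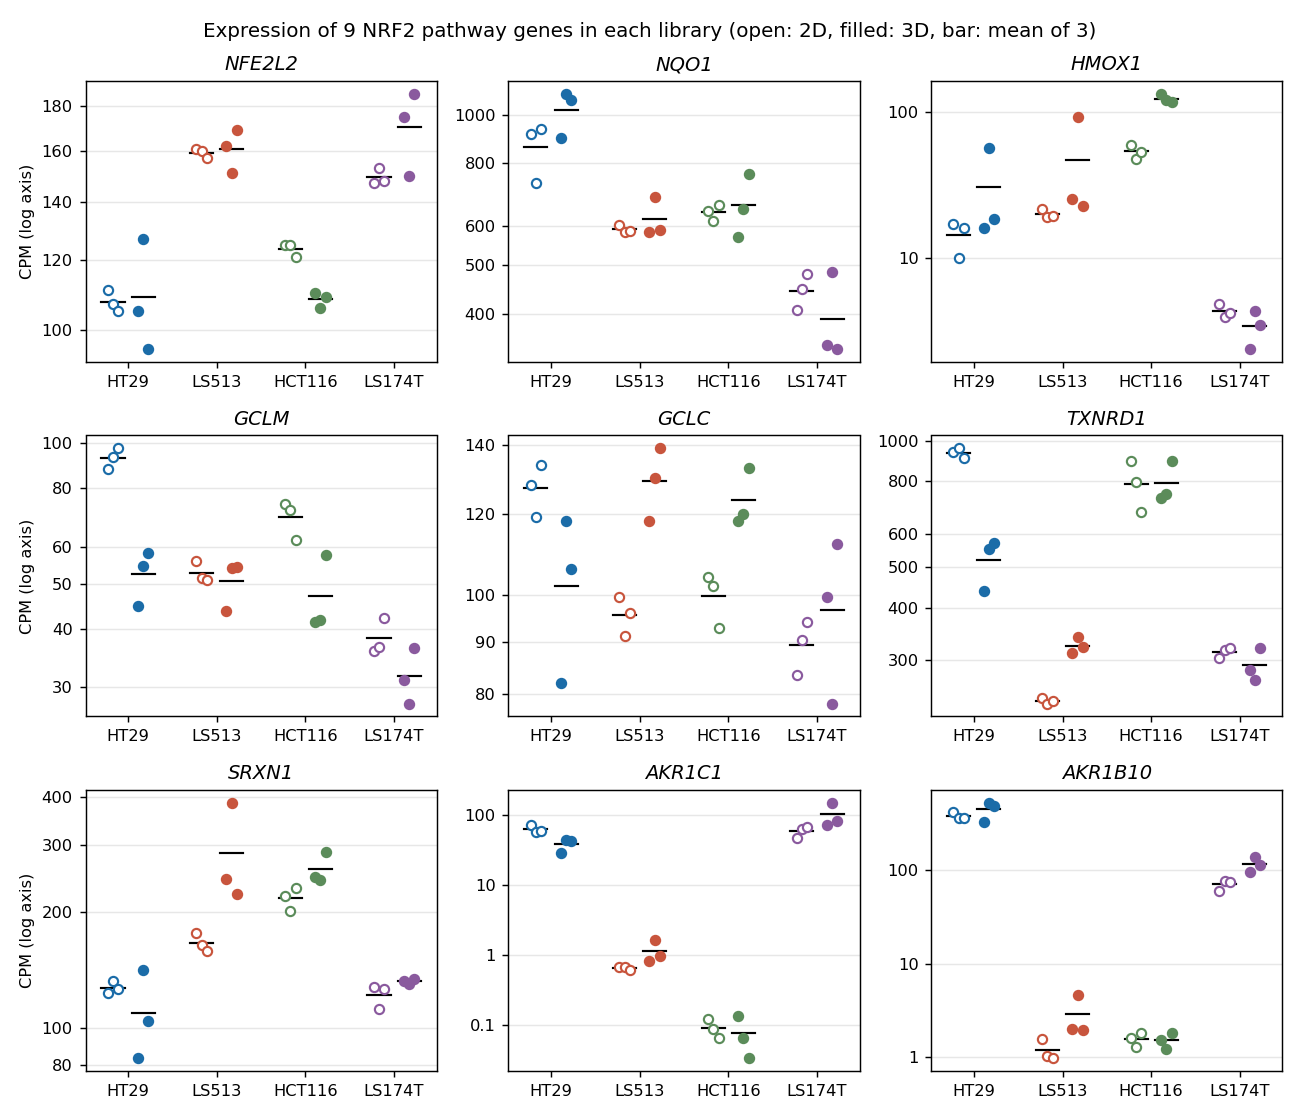
CPM (log axis) of the 9 genes in each of the 24 libraries, with open points for 2D, filled points for 3D and a bar at the mean of the 3 libraries. TXNRD1 and GCLM are lower in every HT29 library grown in 3D, and single high points of HMOX1 stand at 57.2 CPM in HT29 and 93.0 CPM in LS513. In both growth conditions, AKR1C1 and AKR1B10 are far higher in HT29 and LS174T than in LS513 and HCT116.

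AKR1C1 and AKR1B10 encode aldo-keto reductases. AKR1C1 reduces steroids and lipid-derived carbonyls, and AKR1B10 reduces retinal and aliphatic aldehydes. AKR1C1 had 71.8, 55.9 and 57.7 CPM in HT29 grown in 2D and 28.0, 43.3 and 41.5 CPM in 3D. These groups did not overlap, and AKR1C1 fell by 0.72 (SE 0.213, adjusted p = 0.00953, edgeR). The call was lost without HT29 3D replicate 1 (-0.515, adjusted p = 0.0884, edgeR) and without HT29 2D replicate 1 (-0.55, adjusted p = 0.0733, edgeR). In LS174T, AKR1C1 had 46.7, 61.4 and 66.4 CPM in 2D and 71.9, 148 and 82.3 CPM in 3D, and it rose by 0.79 (SE 0.211, adjusted p = 0.0104, edgeR). That call was lost without LS174T 3D replicate 2, the highest library (0.41, adjusted p = 0.130, edgeR), and without LS174T 2D replicate 1, the lowest (0.65, adjusted p = 0.0647, edgeR). In LS513, AKR1C1 had only 0.647 ± 0.0398 CPM in 2D and 1.14 ± 0.437 CPM in 3D, with a log2 value of 0.81 (adjusted p = 0.143, edgeR). Without LS513 3D replicate 2, the highest library, the AKR1C1 value was 0.45 (adjusted p = 0.574, edgeR), and with all genes counted at least once kept it was 0.80 and passed (adjusted p = 0.0118, edgeR). In HCT116 it had 1 to 4 counts per library, at or near the detection limit in both conditions.

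AKR1B10 had 60, 77.6 and 74.7 CPM in LS174T grown in 2D and 96.3, 138 and 113 CPM in 3D. All 3D libraries were above all 2D libraries, and AKR1B10 rose by 0.71 (SE 0.203, adjusted p = 0.0155, edgeR). The call was lost without LS174T 3D replicate 2 (0.57, adjusted p = 0.0971, edgeR) and without LS174T 2D replicate 1 (0.605, adjusted p = 0.0795, edgeR). In LS513, AKR1B10 had 1.58, 1.03 and 0.982 CPM in 2D and 2.01, 4.69 and 1.98 CPM in 3D, and it rose by 1.27 (SE 0.317, adjusted p = 0.00493, edgeR). The level was low in every library, 31 to 132 counts, and without LS513 3D replicate 2 the AKR1B10 value was 0.73 (adjusted p = 0.0983, edgeR). In HT29, AKR1B10 was abundant in both conditions, at 383 ± 33.5 CPM in 2D and 449 ± 108 CPM in 3D, and the groups overlapped. HCT116 had 1.58 ± 0.270 CPM of AKR1B10 in 2D and 1.54 ± 0.299 CPM in 3D.

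AKR1C2 and AKR1C3, neighbours of AKR1C1 on chromosome 10, are close relatives that reduce steroids. AKR1C2 fell by 0.855 in HT29 (adjusted p = 0.0301, edgeR) and rose by 0.90 in LS174T (adjusted p = 0.037, edgeR). In HT29 all AKR1C3 libraries grown in 3D lay below those grown in 2D, with a value of -0.46 (adjusted p = 0.0918, edgeR). AKR1C3 rose by 0.90 in LS174T, by 0.69 in LS513 and by 2.37 in HCT116, in the last from only 0.751 ± 0.5 to 3.84 ± 0.412 CPM. Of the read positions of AKR1C2, 30.1% also match another AKR1C gene, and of those of AKR1C3, 2.87% do. The AKR1C2 calls were lost in HT29 without 3D replicate 1 (-0.55) and without 2D replicates 1 (-0.75) and 3 (-0.67), and in LS174T without 3D replicate 2 (0.515) and without 2D replicates 1 (0.75), 2 (0.94) and 3 (1.02). The AKR1C3 call in LS174T was lost without 3D replicate 2 (0.56). In LS513 the AKR1C3 call was lost without 3D replicate 2 (0.48) and without 2D replicates 1 (0.74), 2 (0.62) and 3 (0.71).

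Whether the growth effect differed between the lines was tested directly by an interaction term. It passed for 5 of the 9 members, where 17.1% of all genes did: TXNRD1 (adjusted p = 1.39e-05, edgeR), AKR1C1 (adjusted p = 0.00389), GCLC (adjusted p = 0.0117), SRXN1 (adjusted p = 0.0178) and GCLM (adjusted p = 0.0203). It did not pass for AKR1B10 (adjusted p = 0.0998), NFE2L2 (adjusted p = 0.155), HMOX1 (adjusted p = 0.306) or NQO1 (adjusted p = 0.343). The number of members was 3 to 7 over all single libraries left out, and 3 without HT29 3D replicate 1, HT29 2D replicate 3 or LS513 3D replicate 2. TXNRD1 and AKR1C1 kept the call in all 30 alternatives. GCLM lost it without HT29 3D replicate 1 (adjusted p = 0.0648, edgeR), HT29 2D replicates 2 (0.05) and 3 (0.0548) and LS513 3D replicates 2 (0.0565) and 3 (0.0533). GCLC lost it without HT29 3D replicate 1 (0.0631) and HT29 2D replicate 3 (0.0525), and SRXN1 without LS513 3D replicate 2 (0.0591). Over all 30 alternatives, the call was lost in 7 for GCLM, 2 for GCLC and 2 for SRXN1. Without LS174T 3D replicate 2, NFE2L2 (0.0188) and NQO1 (0.0278) passed too, which gave 7 members. HMOX1 passed in 2 of the 30 alternatives, among them with HT29 3D replicate 3 and LS513 3D replicate 2 left out together (0.00169). AKR1B10 also passed in 2.

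The lines were then compared in pairs, and pairs that include the same line share its libraries. HT29 and LS513 differed for 5 members (12.1% of all genes), always with the lower fold change in HT29. The difference, HT29 minus LS513, was -1.29 for TXNRD1 (SE 0.150, adjusted p = 3.09e-06, edgeR). It was -0.995 for SRXN1 (adjusted p = 0.00426), -0.74 for GCLC (adjusted p = 0.00434), -0.77 for GCLM (adjusted p = 0.00728) and -1.53 for AKR1C1 (adjusted p = 0.0247, edgeR). The first 4 of these stayed past the threshold in all 18 alternatives. The AKR1C1 difference did not without LS513 3D replicate 2 (-1.14), LS513 2D replicates 2 (-1.55) and 3 (-1.48), HT29 3D replicate 1 (-1.32) or HT29 2D replicate 1 (-1.35), and the LS513 values rest on 19 to 46 counts per library.

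HT29 and HCT116 differed for 2 members (7.76% of all genes), with differences of -0.85 for TXNRD1 (adjusted p = 0.00045, edgeR) and -0.63 for GCLC (adjusted p = 0.0217, edgeR). HT29 and LS174T differed for 2 members (6.65% of all genes), with -0.75 for TXNRD1 (adjusted p = 0.00294, edgeR) and -1.51 for AKR1C1 (adjusted p = 0.00266, edgeR). LS513 and LS174T differed for TXNRD1 alone (3.62% of all genes), by 0.54 (adjusted p = 0.0442, edgeR), a call that was lost in 14 of 18 alternatives. No member passed between LS513 and HCT116 (4.34% of all genes) or between HCT116 and LS174T (4.75% of all genes) in edgeR, and DESeq2 called 1 member in each of these pairs. At an unadjusted p under 0.05, 4 members passed between LS513 and HCT116 and 2 between HCT116 and LS174T. The GCLC difference between HT29 and HCT116 was lost without HT29 3D replicate 1 (-0.44), HT29 2D replicates 1 (-0.55) and 3 (-0.54), HCT116 3D replicates 2 (-0.59) and 3 (-0.51) and HCT116 2D replicate 3 (-0.51).

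**Figure D3:**
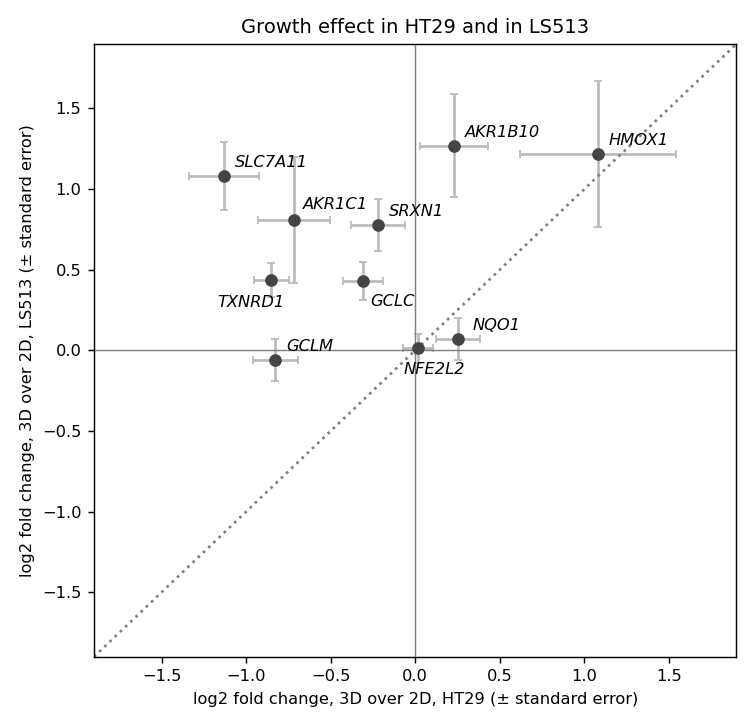
Log2 fold change of 3D over 2D in HT29 (x axis) against that in LS513 (y axis), with standard errors, for the 9 genes and for SLC7A11. TXNRD1, GCLC, SRXN1, AKR1C1 and SLC7A11 lie left of 0 and above 0, the dotted line marks equal values, and NFE2L2 and NQO1 lie near it.

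The lines also differed before any change of growth condition. In 2D, HT29 and LS513 differed for 8 of the 9 members (60.6% of all genes), HT29 and HCT116 for 9 (68.8%) and HT29 and LS174T for 7 (64.6%). LS513 and HCT116 differed for 6 members (68.3%), LS513 and LS174T for 7 (57.6%) and HCT116 and LS174T for 8 (68.3%). Most genes thus differed between any 2 lines in 2D. The spread of each member is given next over all 8 groups, so that it also holds the growth effect. The ratio of the highest to the lowest of the 8 group means was 1.44 for GCLC, 1.57 for NFE2L2, 2.61 for SRXN1, 2.64 for NQO1, 2.93 for GCLM and 3.90 for TXNRD1. It was 36.3 for HMOX1 and 374 for AKR1B10. For NQO1, SRXN1 and HMOX1, both the highest and the lowest group were grown in 3D. AKR1C1 is given by its counts, because HCT116 had so few.

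HT29 had the highest 2D level of NQO1, GCLM, GCLC, TXNRD1, AKR1C1 and AKR1B10. AKR1C1 had 4771 counts over the 3 HT29 libraries grown in 2D and 9 over those of HCT116, a ratio of 687 (95% interval 361 to 1500, counting error only). LS174T reached a ratio of 641 (337 to 1400) over HCT116 in 2D, and of 1270 (616 to 3160) in 3D. AKR1C1 did not differ between HT29 and LS174T beyond the spread (log2 difference 0.09, SE 0.211, adjusted p = 0.741, edgeR). AKR1B10 was 320 times higher in HT29 than in LS513 (log2 difference 8.32, SE 0.298, adjusted p = 4.19e-17, edgeR) and 5.43 times higher than in LS174T. TXNRD1 was 3.92 times higher in HT29 than in LS513 (adjusted p = 1.59e-13, edgeR) and 2.99 times higher than in LS174T (adjusted p = 6.4e-12, edgeR). HMOX1 was highest in HCT116, 12.5 times above LS174T (adjusted p = 2.95e-06, edgeR). SRXN1 was also highest in HCT116, 1.79 times above LS174T (adjusted p = 7.01e-05, edgeR). NFE2L2 was lowest in HT29, at 0.677 times the LS513 level (adjusted p = 7.56e-06, edgeR), the line in which 6 of its 8 targets were highest.

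Neighbours in the order of the 2D and 3D groups often overlapped. For GCLC, neighbours overlapped within the 3 highest groups (LS513 in 3D, HT29 in 2D and HCT116 in 3D) and within the 5 lowest. HCT116 in 3D did not overlap HT29 in 3D, the next group below it. For GCLM, HT29 in 2D and then HCT116 in 2D stood above the rest without overlap, and the other 6 groups overlapped their neighbours. For TXNRD1, HT29 in 2D was above HCT116 in either condition, HT29 in 3D lay below HCT116, and LS513 in 2D was the lowest without overlap. For HMOX1, HCT116 in 3D was above all others and both LS174T groups were below all others. For AKR1B10, both HT29 groups and both LS174T groups stood above LS513 and HCT116 without overlap.

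Between genes, levels can be compared only per length. With the CPM divided by the length of the principal transcript in kilobases (RPKM), HT29 grown in 2D had 296 for NQO1, 241 for AKR1B10, 238 for TXNRD1, 47.1 for SRXN1, 37.8 for NFE2L2, 33.3 for GCLC, 19.2 for GCLM, 9.22 for AKR1C1 and 7.97 for HMOX1. In LS174T grown in 2D, NQO1 was again the highest at 153 RPKM, and HMOX1 the lowest at 2.38 RPKM. By this length GCLC exceeded GCLM in all 8 groups, but the order depends on the length used. Divided by the length of all exons, GCLM was above GCLC in HT29 (17.2 against 14.7 RPKM) and HCT116 (12.8 against 11.5 RPKM) grown in 2D and below it in the other 6 groups. The principal transcript of AKR1C1 is annotated at 6705 bases, and its level per length is lowered accordingly.

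The other genes of the pathway were 77 regulators, partners and targets, of which 76 were tested. They too were listed with earlier results of these data known, so counts beside the shares of all genes are descriptions. In HT29, 15 of them rose and 20 fell, with a median log2 fold change of -0.047, where 21.1% of all tested genes rose and 19.6% fell. In LS513, 31 rose and 2 fell (median 0.29), against 13.7% and 9.9% of all genes. In HCT116, 14 rose and 3 fell (median 0.19), against 16.8% and 12.3%. In LS174T, 20 rose and 5 fell (median 0.23), against 13.1% and 9.15%. The counts that rose in HT29 and in HCT116 were near the share among all genes. For the enzymes of quinone, carbonyl and drug detoxification, 1 of 17 rose and 8 fell in HT29 (9 fell at an unadjusted p under 0.05, 7 by DESeq2). In LS513 6 rose and none fell, also at an unadjusted p under 0.05 and by DESeq2. In HCT116 3 rose and none fell (1 fell at an unadjusted p under 0.05, 0 by DESeq2), and in LS174T 4 rose and 3 fell. Of the 6 genes of NADPH supply, which feeds both reductase systems, 1 rose and 2 fell in HT29, 5 rose in LS513, none passed in HCT116 (2 at an unadjusted p under 0.05, 0 by DESeq2), and 3 rose and 1 fell in LS174T. Of 15 glutathione genes, 4 rose and 3 fell in HT29, 7 rose in LS513, 2 rose in HCT116 and 4 rose in LS174T. Of 9 genes of heme and iron handling, 3 rose and 1 fell in HT29, 5 rose and 1 fell in LS513, 4 rose in HCT116 and 3 rose in LS174T. Of 9 thioredoxin genes, 3 rose and 1 fell in HT29, 2 rose in LS513, 2 in LS174T and 1 in HCT116, with no fall in those 3 lines. Of 12 regulators, 2 rose in each line, and 4 fell in HT29, 1 in LS513, 1 in LS174T and 2 in HCT116. Of the 8 tested genes on the list of other targets, 1 rose and 1 fell in HT29, 4 rose in LS513, 2 rose and 1 fell in HCT116 and 2 rose in LS174T.

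**Figure D4:**
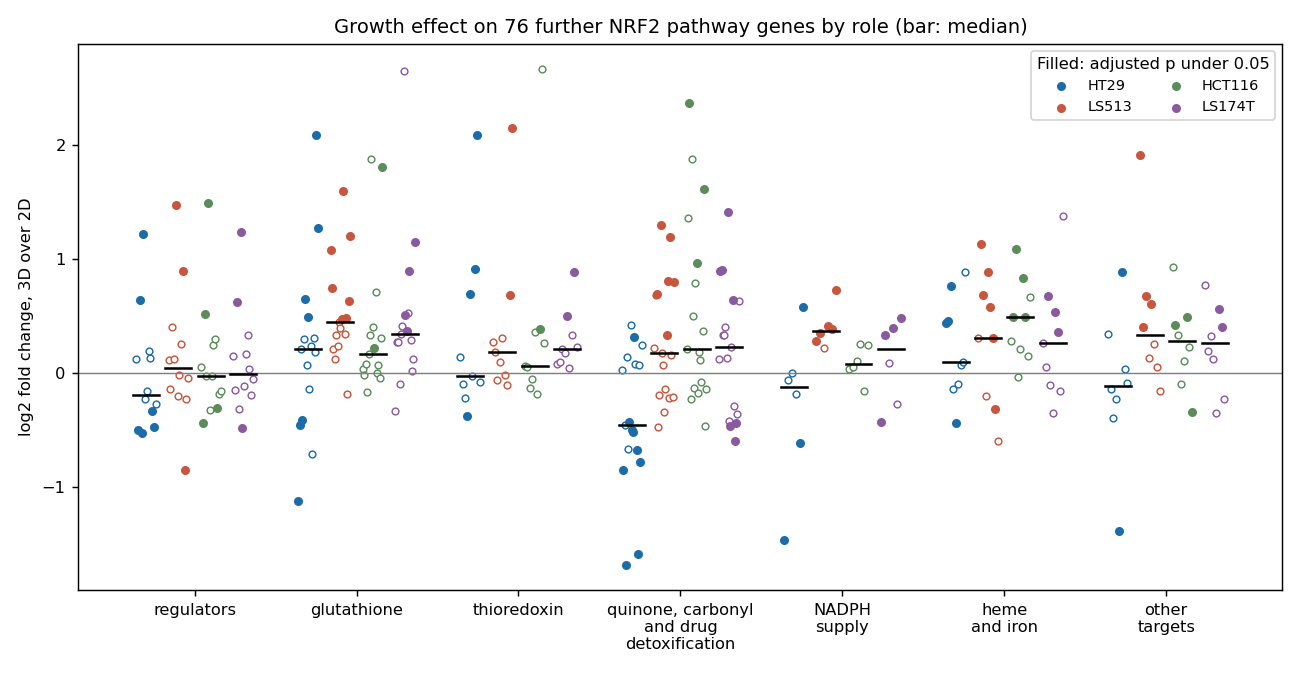
Log2 fold change of 3D over 2D (y axis) of the 76 other pathway genes tested, by role (x axis) and line (colour), filled where the adjusted p was under 0.05, with a bar at the median. For quinone, carbonyl and drug detoxification the median is -0.46 in HT29 and 0.17 in LS513, and the NADPH supply genes of LS513 have a median of 0.36.

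Among the regulators, KEAP1 passed the test in no line, with values of 0.12 in HT29, 0.11 in LS513, 0.15 in LS174T and 0.05 in HCT116. MAFF, a small MAF protein, rose in all 4 lines, by 1.22 in HT29 (adjusted p = 3.8e-05, edgeR), 1.47 in LS513 (adjusted p = 1.22e-05), 1.49 in HCT116 (adjusted p = 7.87e-06) and 1.24 in LS174T (adjusted p = 0.00017, edgeR). Its level was low, 5.31 to 15.6 CPM in 2D and 12.6 to 36.4 CPM in 3D. The related MAFG fell by 0.485 in LS174T (adjusted p = 0.0191, edgeR), a call lost without LS174T 3D replicate 2 (-0.40) and without LS174T 2D replicate 1 (-0.43). In HT29 the MAFG value of -0.23 (adjusted p = 0.213, edgeR) became -0.43 (adjusted p = 0.012, edgeR) without HT29 3D replicate 3. BACH1, a repressor that competes with NRF2, fell in HT29 from 33.8 ± 1.82 to 23.5 ± 0.451 CPM, by 0.53 (adjusted p = 0.0327, edgeR). The BACH1 call was lost whichever single library of HT29 was left out, with adjusted p between 0.0641 and 0.107.

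SLC7A11, the cystine importer that supplies cysteine for glutathione, fell in HT29 from 118 ± 30.2 to 53.8 ± 18.1 CPM, by 1.13 (adjusted p = 0.000173, edgeR). It rose in LS513 from 25.4 ± 0.975 to 53.8 ± 6.38 CPM, by 1.08 (adjusted p = 0.000617, edgeR). GPX2, the glutathione peroxidase of gut epithelium, went the other way in HT29 and rose from 1040 ± 93.0 to 1630 ± 138 CPM, by 0.64 (adjusted p = 0.00274, edgeR).

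Further pathway genes moved by at least 1 on the log2 scale, and up to 4 per line are named, those with the smallest p. In HT29, GGT1, which breaks down extracellular glutathione, and TXNIP, an inhibitor of thioredoxin, both rose by 2.09, to 5.57 ± 0.763 and 122 ± 52.0 CPM. SLC6A9, a glycine transporter, fell by 1.39 there (adjusted p = 1.64e-06, edgeR). In LS513, SESN2, a stress-induced sestrin, rose by 2.15 (adjusted p = 6.19e-09, edgeR), the glutathione transferase GSTA4 by 1.6 and the biliverdin reductase BLVRA by 1.13. In HCT116, the glutaredoxin GLRX rose by 1.81, the drug efflux pump ABCC3 by 1.61 and BLVRB, a flavin and biliverdin reductase, by 1.09. In LS174T, the aldehyde dehydrogenase ALDH1A1 rose by 1.41, from 316 ± 79.8 to 837 ± 191 CPM, and GLRX by 1.15. Being named for a line does not make a gene particular to it. GLRX also rose in HT29 (1.27) and LS513 (1.2), and BLVRB in HT29 (0.758), LS513 (0.687) and LS174T (0.675).

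Levels of the 9 genes were last compared over libraries, as log2 CPM with the mean of each line subtracted, so that only variation within a line counts. The 24 libraries share 4 lines and 2 growth conditions, and the correlations are descriptions. SRXN1 and AKR1B10 had the highest Pearson r of any pair of members (0.776), followed by GCLM and TXNRD1 (0.725), GCLC and TXNRD1 (0.722) and GCLC and SRXN1 (0.716). GCLM and GCLC, whose products form 1 enzyme, had an r of 0.266. NFE2L2 had an r between -0.374 and 0.182 with the 8 targets. Among 14532 genes, the one most like TXNRD1 was GPAT3 (r = 0.944) and the one most like GCLM was MAK16 (r = 0.92). DDIT3, which encodes the stress-induced factor CHOP, was the most like both SRXN1 (r = 0.858) and AKR1B10 (r = 0.865). The nearest genes were ATXN1 for GCLC (r = 0.843), SNORA64 for AKR1C1 (r = 0.842), AC106886.2 for HMOX1 (r = 0.831), BAK1 for NQO1 (r = 0.759) and ZNF670 for NFE2L2 (r = 0.744).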

How the data were processed

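Poly(A)-selected, strand-specific RNA libraries were sequenced as single reads. The authors trimmed the reads with Trim Galore (0.4.1), dropped reads of 40 bases or less or of a mean quality of 30 or less, aligned the rest with STAR, removed multiply aligned reads and counted with HTSeq (0.5.3). They deposited raw counts per Ensembl gene for each technical replicate, without normalization. The submitters' processing notes name hg19, while the methods name Ensembl on GRCh38; 57980 of the 58243 identifiers are in GENCODE 29, which was used here for names and positions.

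The 8 technical replicates of each library were summed (for HT29 3D replicate 4, 7 were used, the other not being analysed here). Over genes, the median chi-square per degree of freedom between them was 0.905 to 0.934. Depth and detection limits are given with the levels. Counts were analysed with edgeR 4.0.16 in R 4.3.3: genes were filtered with filterByExpr, libraries scaled by TMM, and the 24 libraries fitted by robust quasi-likelihood with 8 group coefficients and Benjamini-Hochberg adjustment. The edgeR steps were tested on simulated data. Named beyond the 9 members are KEAP1, BACH1, MAFG, SLC7A11, GPX2, AKR1C2 and AKR1C3, up to 4 further pathway genes per line with a log2 change of at least 1 and the smallest p, and the gene most like each member; 1 further gene of the rule is not reported here. COL1A1, CD68 and other markers were fixed as lists, and MAFF is shown by sequence after its values were seen. The members and lists were chosen with earlier results of these data known. Alternatives were DESeq2 1.42.0 and its size factors, all genes with a count, a replicate block, only the libraries compared, no technical replicate d, the study's fold cutoffs (-0.5 and 1.5), each library left out, and 2 libraries left out together, which was added after the values were seen, as were the comparisons of growth effects between pairs of lines. HT29 3D replicates are numbered 1, 3 and 4, and equal numbers were not taken as pairs in the main fit.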

Additional observations from a re-analysis of the deposited data

Results flagged for a closer look

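The 3D growth effect differed between the 4 lines for 5 of the 9 genes by the interaction test of edgeR, which is why they are listed. The adjusted p was 1.39e-05 for TXNRD1, with log2 fold changes of -0.85 in HT29, 0.44 in LS513, -0.10 in LS174T and 0.0042 in HCT116. It was 0.00389 for AKR1C1, with -0.72 in HT29, 0.81 in LS513 (0.45 without LS513 3D replicate 2), 0.79 in LS174T and -0.22 in HCT116 (on 1 to 4 counts per library). It was 0.0117 for GCLC, with -0.31 in HT29, 0.43 in LS513, 0.11 in LS174T and 0.32 in HCT116. It was 0.0178 for SRXN1 with its overlapping transcript, with -0.22 in HT29, 0.78 in LS513, 0.11 in LS174T and 0.25 in HCT116. It was 0.0203 for GCLM, with -0.83 in HT29, -0.06 in LS513, -0.27 in LS174T and -0.56 in HCT116. HCT116 was kept in another medium than the other lines, which cannot be told apart from the line. TXNRD1 and AKR1C1 passed in all 30 alternatives, and GCLM, GCLC and SRXN1 did not.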

How the results depend on the processing

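The limits are 3 libraries per group and, for AKR1C1 in HCT116 and LS513 and AKR1B10 in LS513 and HCT116, few counts. Scaling with the size factors of DESeq2 changed no count of members called by more than 1.5 times. With the cutoffs of the study, members called in 3D against 2D were 0 in LS513, 0 in LS174T and 1 in HCT116. These cutoffs are unequal, a log2 fold change under -0.5 or over 1.5, and the highest value of any member was 1.27. No rise of a member could therefore pass them. In HT29 the falls of GCLM (-0.83), TXNRD1 (-0.85) and AKR1C1 (-0.72) were past the lower cutoff. When only the lines compared were fitted, 1 member was called in LS174T. The replicate block gave 3 members whose effect differed between the 4 lines, 1 between HT29 and HCT116, 1 between HT29 and LS174T and 0 between LS513 and LS174T. Over genes, deviations from the group means correlated at -0.126 to 0.0773 between equal numbers and at -0.203 to 0.198 between unequal ones. Such deviations cancel within each group of 3 libraries, so these values cannot decide whether equal numbers belong together. With 2 libraries left out together (HT29 3D replicate 3 and LS513 3D replicate 2), 4 members differed between HT29 and HCT116, 1 between LS513 and HCT116, 0 between LS513 and LS174T and 2 between HCT116 and LS174T. With all genes kept, 2 members differed between LS513 and HCT116, 3 between LS513 and LS174T and 2 between HCT116 and LS174T, and DESeq2 called 1 in the first and 1 in the last of these pairs. The causes were not tested.

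With single libraries or technical replicate d left out, members called ran from 2 to 4 in HT29, 1 to 2 in HCT116 and 0 to 3 in LS174T, and members whose effect differed from 3 to 7 over the 4 lines, 1 to 2 between HT29 and HCT116, 2 to 5 between HT29 and LS174T, 0 to 2 between LS513 and HCT116, 0 to 1 between LS513 and LS174T and 0 to 1 between HCT116 and LS174T.

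No value that reversed was past the threshold. With 2 libraries left out together, the log2 fold change was -0.0625 for NFE2L2 in HT29, -0.0176 for NQO1 and -0.0089 for KEAP1 in LS513 and -0.0176 for TXNRD1 in HCT116. With only the lines compared it was -0.0012 for NFE2L2 in LS513 and -0.0189 for TXNRD1 in HCT116, and with all genes kept -0.0274 for TXNRD1 in HCT116. With single libraries or technical replicate d left out, NFE2L2 ran from -0.0625 to 0.141 in HT29 and -0.0245 to 0.0491 in LS513. In LS513, NQO1 ran from -0.0174 to 0.104, GCLM from -0.113 to 0.0272 and KEAP1 from -0.0087 to 0.19. In HCT116, NQO1 ran from -0.0937 to 0.12, TXNRD1 from -0.12 to 0.10, AKR1C1 from -0.84 to 0.11, AKR1B10 from -0.212 to 0.0739, KEAP1 from -0.035 to 0.0698, BACH1 from -0.149 to 0.0478, SLC7A11 from -0.10 to 0.21 and GPX2 from -0.80 to 0.87. GCLC ran from -0.0050 to 0.25 in LS174T, and between HT29 and LS174T in 2D SRXN1 ran from -0.0013 to 0.0905 and AKR1C1 from -0.0502 to 0.19.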
